A study of Rattus norvegicus with 12 samples.

Results

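The expression of 38 genes that mark the podocytes of the glomerulus, the endothelium of renal vessels and the mural cells around them was examined in rat renal cortex. The genes were taken by name: 13 podocyte genes (Nphs1, Podxl, Synpo, Wt1, Plce1, Cd2ap, Ptpro, Tcf21, Kirrel1, Magi2, Vegfa, Clic5 and Robo2), 16 endothelial genes (Pecam1, Cdh5, Tie1, Tek, Kdr, Flt1, Emcn, Ehd3, Plvap, Eng, Nos3, Vwf, Esam, Erg, Sox17 and Egfl7) and 9 mural genes (Pdgfrb, Pdgfra, Acta2, Myh11, Tagln, Rgs5, Cspg4, Des and Notch3). Of the 15284 genes that could be named on the array through a RefSeq transcript, 36 were among these 38, measured by 67 probes, and Vwf and Egfl7 were not analysed here. Each of the 36 genes was well above background on all 12 arrays, so none was lost to the filter on dim features, and none of their spots was saturated. Levels are given as the log2 of the processed signal divided by the 75th percentile of its array, where a gene has several probes for the brightest one, and levels of different genes cannot be set against each other on this scale.

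All animals were male Sprague-Dawley (Crl:CD(SD)) rats, bought at 5 weeks of age. Rats given bromodichloromethane (BDCM), a trihalomethane formed when drinking water is chlorinated, received 200 mg/kg/day for 4 weeks, and control rats received corn oil, its vehicle. Blood was drawn 24 h after the last dose, under CO2-O2 gas in the first of 2 experiments and under isoflurane in the second. The 4 groups had 3 animals each: BDCM with CO2-O2, oil with CO2-O2, BDCM with isoflurane and oil with isoflurane. One 1-colour array was run per animal, on RNA of whole renal cortex, in which tubules make up most of the tissue. A lower level of a cell type gene in such RNA can come from fewer cells of that type or from less of its RNA per cell. As levels are scaled to the whole array, it can also come from a larger share of RNA from other cells. These cannot be told apart here.

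The glomerular filter is built from fenestrated endothelium, a basement membrane and the interlocking foot processes of podocytes, which are bridged by the slit diaphragm. Podocytes and mural cells secrete vascular endothelial growth factor and angiopoietin-1, which act on receptors of the neighbouring endothelium, and endothelial cells in turn hold mural cells with platelet-derived growth factor and with Notch ligands. In the cortex the endothelial genes are shared by glomerular, peritubular and larger vessels, and several genes of these lists are not private to the cell type they are filed under: Vegfa and Cd2ap are also made by tubule cells, and Pdgfra by interstitial fibroblasts.

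Several features of the arrays bear on the results. Between 67.4 and 72.5% of the 61657 non-control probes were well above background on each array, and the arrays' 75th percentiles lay between 1079.5 and 1476.5 intensity units. Precision is limited by having only 3 arrays in a group. One animal stood apart: BDCM rat 2 of the isoflurane experiment was the lowest of the 12 arrays for 19 of the 36 genes and the highest for 3, so counts that rest on it are given with and without it. The experiments shared neither a slide nor a scan day. Slides and treatment were also only partly crossed, and with slide as a block the CO2-O2 effect rests on 1 BDCM animal and the isoflurane effect on 1 oil animal.

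The first question was how BDCM changed these genes, averaged over both experiments (6 BDCM and 6 oil animals). Lower levels prevailed. Of the 36 genes, 16 fell and 2 rose (limma, adjusted p below 0.05 over all 34218 features), while 18 did not pass the test. Over all features tested, 20.4% fell and 17.7% rose, 38.1% in either direction. The share of the 36 genes that fell was 44.4%, and the share that rose was 5.56%. The effect lay below zero in 31 of the 36 genes, and its median was -0.25 on the log2 scale, against -0.04 over all features. By cell type, 8 of 13 podocyte genes, 5 of 14 endothelial genes and 3 of 9 mural genes fell, with median effects of -0.39, -0.21 and -0.16. The 2 genes that rose were the podocyte gene Cd2ap and the mural gene Notch3. The 16 decreases were moderate, with effects from -0.34 to -0.62 on the log2 scale.

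With slide as a block, 8 genes fell (Podxl, Wt1, Plce1, Tie1, Tek, Acta2, Myh11 and Rgs5) and Cd2ap and Notch3 rose. In that fit 12.4% of all features fell and 11.9% rose, 24.3% in either direction, so that the 10 calls among 36 genes were a share near that of all features. With scan day as a block, 13 genes fell and 2 rose, beside 17.7% of all features that fell, and the calls of Nphs1, Podxl, Magi2, Robo2, Emcn and Erg were lost. Without BDCM rat 2 of the isoflurane experiment, 15 genes fell and 3 rose, beside 17.0% and 15.7% of all features.

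**Figure D1:**
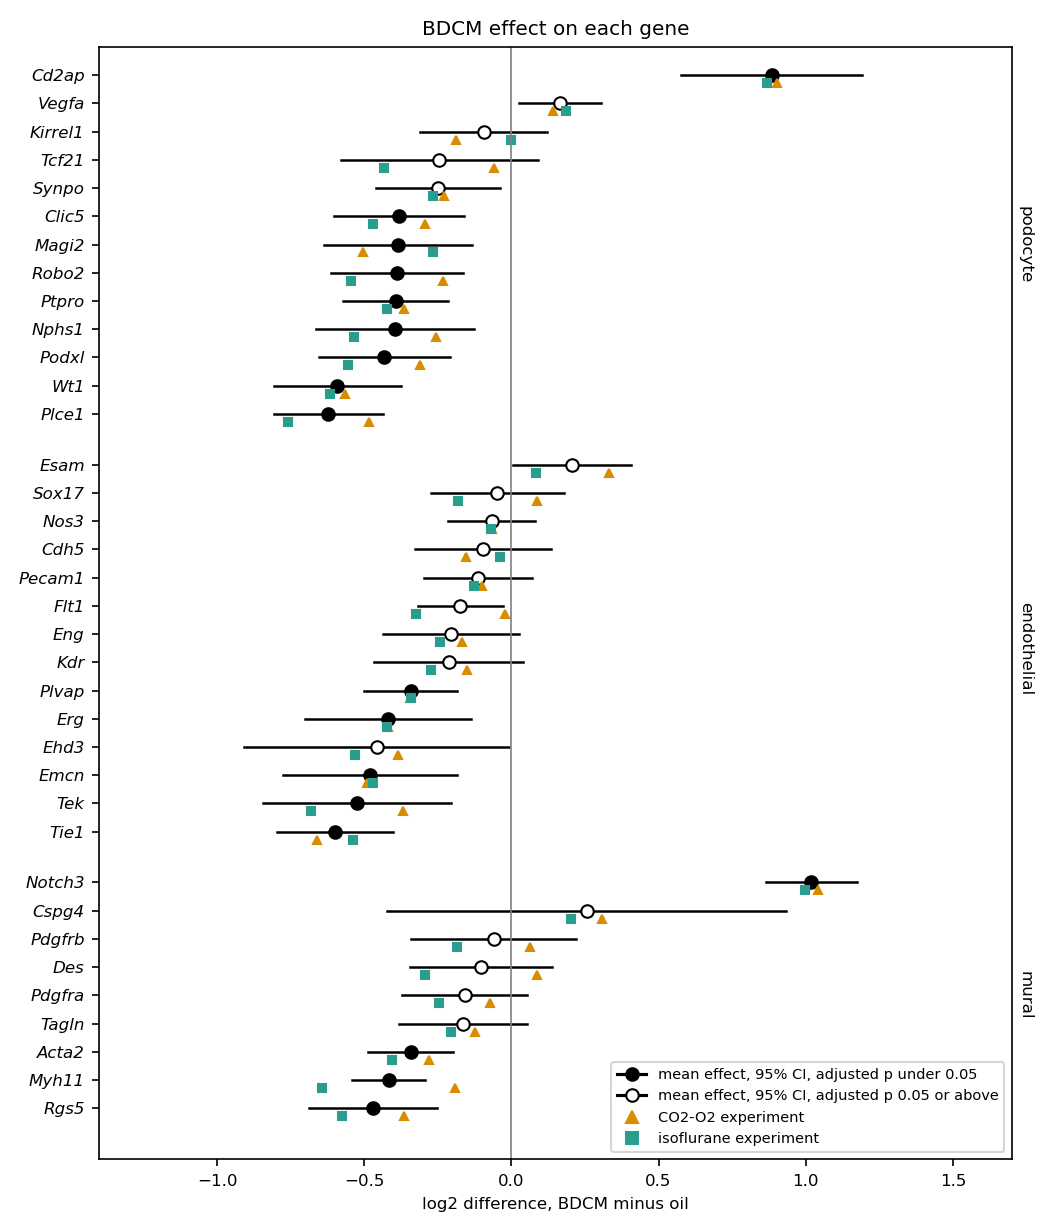
Effect of BDCM on each of the 36 genes, as the log2 difference BDCM minus oil (horizontal axis), ordered within cell type. Circles show the mean over both experiments with its 95% confidence interval (filled where the adjusted p was below 0.05), triangles the CO2-O2 experiment and squares the isoflurane experiment. Cd2ap and Notch3 lie to the right at 0.88 and 1.02, and most other genes lie left of zero, down to -0.62 for Plce1.

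Among the podocyte genes the transcription factor Wt1, which podocytes need for their identity, and the phospholipase Plce1, which is mutated in a form of nephrotic syndrome, fell most. Wt1 had log2 signals of -0.55, -0.50 and -0.71 in BDCM rats of the CO2-O2 experiment, against -0.28, 0.12 and 0.09 in oil rats. In the isoflurane experiment its values were -0.96, -1.28 and -0.88 in BDCM rats and -0.30, -0.46 and -0.51 in oil rats. All BDCM animals lay below all oil animals of their experiment, and the mean effect was -0.59 (95% confidence interval -0.81 to -0.38, adjusted p = 0.0010), so that the Wt1 signal fell by 33.6%. The other 3 Wt1 probes passed the test as well, with effects between -0.66 and -0.44. Plce1 had values of -1.16, -1.02 and -1.39 in BDCM rats and -0.82, -0.75 and -0.55 in oil rats with CO2-O2. With isoflurane, Plce1 stood at -1.29, -1.49 and -1.34 in BDCM rats, against -0.73, -0.61 and -0.49 in oil rats. The groups again did not overlap, and the mean effect was -0.62 (-0.81 to -0.44, adjusted p = 0.00030), so that the Plce1 signal fell by 35.0%.

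Of the other podocyte genes, 6 fell. Nephrin (Nphs1), the adhesion molecule that spans the slit, was at 0.60, 0.78 and 0.57 in BDCM rats of the CO2-O2 experiment and at 0.71, 1.08 and 0.92 in oil rats. With isoflurane Nphs1 was at 0.86, 0.12 and 0.56 in BDCM rats, against 1.06, 1.16 and 0.93 in oil rats. The CO2-O2 groups overlapped and the isoflurane groups did not. The mean effect on Nphs1 was -0.40 (-0.66 to -0.13, adjusted p = 0.026), and its second probe fell by 0.54. Podocalyxin (Podxl), the negatively charged coat protein of the foot processes, fell by 0.43 (adjusted p = 0.0068), and by 0.33 with scan day as a block (adjusted p = 0.080). Ptpro, a tyrosine phosphatase of the podocyte membrane, fell by 0.39 (adjusted p = 0.0036) on the probe used, its other probes gave -0.40 and -0.42, and its groups overlapped in neither experiment. The scaffold protein gene Magi2, Clic5, a chloride intracellular channel protein of the foot processes, and the guidance receptor gene Robo2 fell by 0.39, 0.38 and 0.39 (adjusted p = 0.022, 0.012 and 0.012). The other Robo2 probes, both dimmer, had effects of -0.48 and -0.34 that did not pass the test (adjusted p = 0.065 and 0.20). The Nphs1 call was lost when CO2-O2 oil rat 2 (adjusted p = 0.062), CO2-O2 oil rat 3 (0.052), CO2-O2 BDCM rat 3 (0.056), isoflurane oil rat 1 (0.050) or isoflurane oil rat 2 (0.059) was left out, with a range of 0.0059 to 0.33 over all alternatives. The Magi2 call was lost without CO2-O2 oil rat 3 (0.054), isoflurane oil rat 3 (0.052) or isoflurane BDCM rat 2 (0.052), with a range of 0.0046 to 0.18.

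The podocyte gene that rose was Cd2ap, an adaptor protein that ties the slit diaphragm to actin and that tubule cells also make. Cd2ap stood at 0.44, 0.69 and 0.80 in BDCM rats of the CO2-O2 experiment, against -0.30, -0.18 and -0.29 in oil rats. In the isoflurane experiment it stood at 0.55, 1.40 and 0.70 in BDCM rats, against -0.05, 0.20 and -0.10 in oil rats. Every BDCM animal lay above every oil animal of its experiment. The mean effect was 0.88 (0.58 to 1.19, adjusted p = 0.00077), which is 1.85-fold (1.49 to 2.29). Within the slides that held both treatments the effect was 0.95 with CO2-O2 and 1.07 with isoflurane (adjusted p = 0.099 and 0.093, with 1 animal on one side of each). A single probe measured this gene.

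The promoter of Cd2ap is shown because it had the largest change of the 13 podocyte genes and was the one that rose. It is RefSeq sequence of the rat build GRCr8, 300 bases from 250 before to 50 after the annotated start, at chr9:25583725-25584024 on the plus strand:
Cd2ap: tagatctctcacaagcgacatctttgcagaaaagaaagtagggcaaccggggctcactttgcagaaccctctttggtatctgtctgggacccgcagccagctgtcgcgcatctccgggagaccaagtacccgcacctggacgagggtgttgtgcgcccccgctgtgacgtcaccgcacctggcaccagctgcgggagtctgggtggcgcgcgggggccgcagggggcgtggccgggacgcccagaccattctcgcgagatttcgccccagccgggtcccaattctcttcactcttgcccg
Capitals would mark the core letters of an ETS factor site, GGAA on either strand, and this window holds none. Of 33469 such windows over the rat genes, 95.8% hold at least 1, and so did 29 of the 30 windows that matched 28 of the 38 genes.

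Synpo, Tcf21, Kirrel1 and Vegfa did not pass the test. Synaptopodin (Synpo), an actin-binding protein of the foot processes, had an effect of -0.25 (-0.46 to -0.04, adjusted p = 0.061). The transcription factor gene Tcf21 and the slit protein gene Kirrel1 had effects of -0.25 (-0.58 to 0.09) and -0.09 (-0.31 to 0.12). Vegfa, the growth factor that podocytes and tubules supply to the endothelium, had a positive effect of 0.16 (0.03 to 0.30, adjusted p = 0.062). Its 6 probes gave effects between -0.08 and 0.23, 1 of them past the threshold, so the probes differed. The Vegfa effect passed the threshold in 5 of 26 alternatives. Among them were median scaling (0.20, adjusted p = 0.029), normexp background correction (0.23, adjusted p = 0.0054), and the fit without BDCM rat 2 of the isoflurane experiment (0.20, adjusted p = 0.029).

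**Figure D2:**
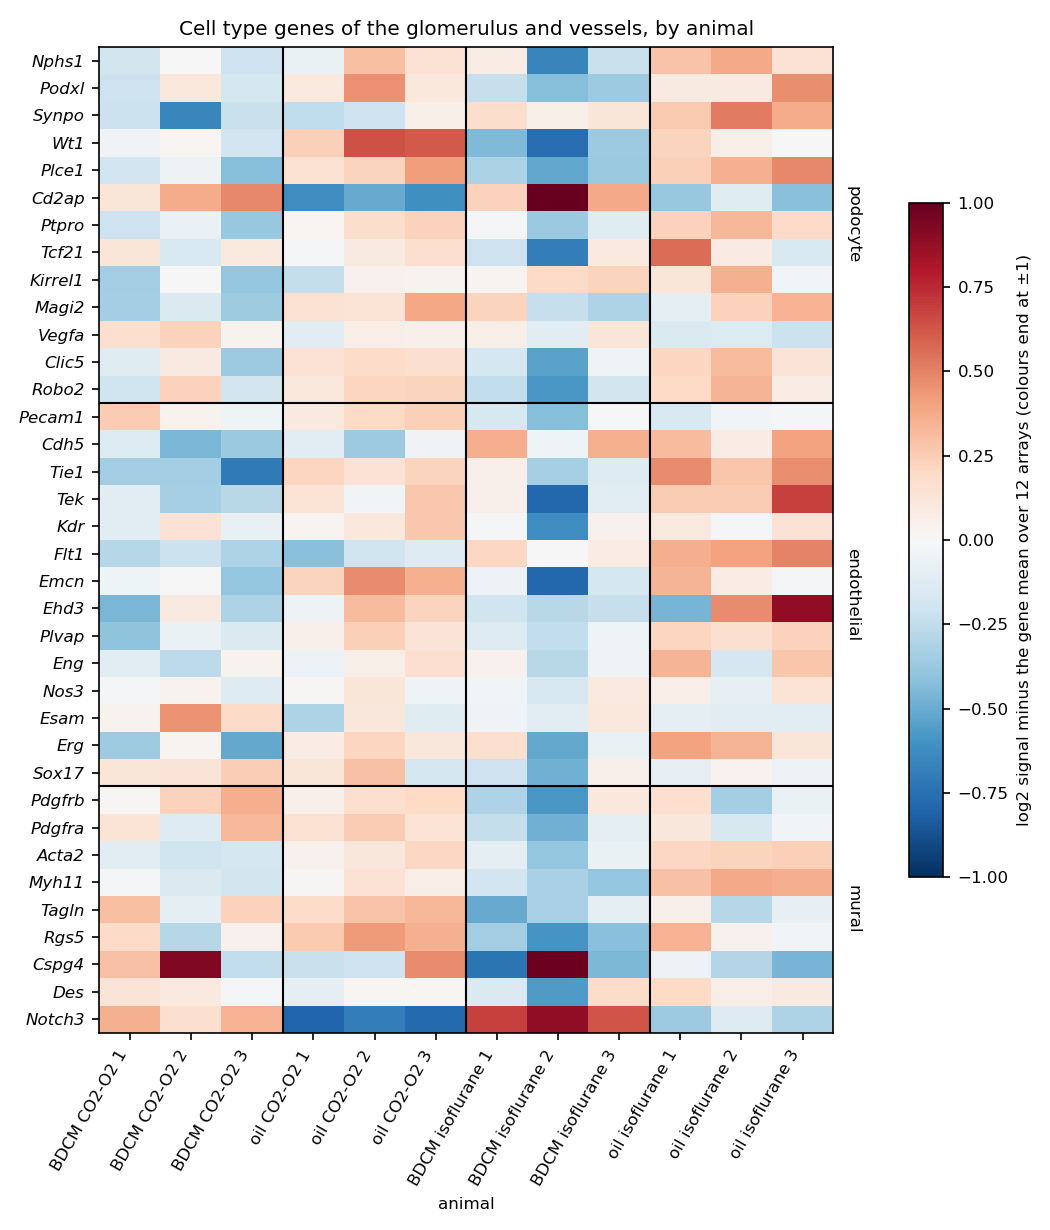
Level of each of the 36 genes (rows, by cell type) in each of the 12 animals (columns, BDCM left of oil within each experiment), as log2 signal minus the gene's mean over the 12 arrays, with colours ending at -1 and 1. Blue fields in the BDCM columns and red fields in the oil columns mark the genes that were lower with BDCM, while the rows of Cd2ap and Notch3 run the other way, and BDCM isoflurane rat 2 has the darkest blue in many rows.

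Among the 14 endothelial genes the Tie receptor genes fell most. Tie1, an endothelial receptor that modulates angiopoietin signalling, was at -1.31, -1.30 and -1.68 in BDCM rats of the CO2-O2 experiment and at -0.75, -0.82 and -0.74 in oil rats. In the isoflurane experiment Tie1 was at -0.91, -1.30 and -1.09 in BDCM rats, against -0.50, -0.69 and -0.50 in oil rats. BDCM and oil animals did not overlap in either experiment. The mean effect was -0.60 (-0.80 to -0.40, adjusted p = 0.00056), so that the Tie1 signal fell by 34.0%, and the second Tie1 probe fell by 0.69. Tek (Tie2), the receptor to which angiopoietins bind, was at -2.81, -3.02 and -2.97 in BDCM rats and at -2.55, -2.72 and -2.42 in oil rats with CO2-O2. With isoflurane Tek was at -2.64, -3.47 and -2.81 in BDCM rats, against -2.44, -2.44 and -2.00 in oil rats. Its groups did not overlap either, and the mean effect was -0.52 (-0.84 to -0.20, adjusted p = 0.016). The second Tek probe had an effect of -0.41 that did not pass the test (adjusted p = 0.16).

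The promoter of Tie1 is shown because it had the largest change of the 14 endothelial genes, and because ETS factors such as Erg, another of these genes, are known to drive endothelial transcription. The window (RefSeq, GRCr8) lies at chr5:137304932-137305231 on the minus strand:
Tie1: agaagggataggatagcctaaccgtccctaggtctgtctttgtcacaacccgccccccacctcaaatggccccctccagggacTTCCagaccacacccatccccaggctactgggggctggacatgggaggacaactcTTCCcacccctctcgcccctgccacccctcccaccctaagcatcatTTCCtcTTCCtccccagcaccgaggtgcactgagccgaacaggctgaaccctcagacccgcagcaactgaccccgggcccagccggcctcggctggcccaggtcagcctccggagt
Capitals mark the 4 ETS core matches, all read here as TTCC, the reverse complement of GGAA. Given the 95.8% of all windows with a match, their presence describes the letters only.

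Of the other endothelial genes, 3 fell. Endomucin (Emcn), a surface sialomucin of capillary and venous endothelium, fell by 0.48 (adjusted p = 0.017). Plvap, which forms the diaphragms of fenestrated peritubular capillaries, was at 5.16, 5.51 and 5.43 in BDCM rats and at 5.62, 5.80 and 5.70 in oil rats with CO2-O2. With isoflurane it was at 5.44, 5.32 and 5.53 in BDCM rats, against 5.79, 5.73 and 5.80 in oil rats. The groups did not overlap, and Plvap fell by 0.34 (adjusted p = 0.0038), by 0.35 on its second probe. The ETS factor gene Erg fell by 0.42 (adjusted p = 0.025). The Erg call was lost without CO2-O2 oil rat 2 (0.055), CO2-O2 BDCM rat 3 (0.057), isoflurane oil rat 1 (0.056) or isoflurane oil rat 2 (0.052), with a range of 0.010 to 0.42 over all alternatives.

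The other 9 endothelial genes did not pass the test, among them the widely used markers of all endothelium. Effects were -0.11 (-0.30 to 0.07) for Pecam1 (CD31), -0.10 (-0.33 to 0.14) for Cdh5 (VE-cadherin) and -0.07 (-0.21 to 0.08) for Nos3, the endothelial nitric oxide synthase. The second Pecam1 probe had an effect of 0.12, so the sign of Pecam1 was not settled. The VEGF receptor genes Kdr and Flt1 had effects of -0.21 (-0.47 to 0.04) and -0.17 (-0.32 to -0.03, adjusted p = 0.059), and the TGF-beta co-receptor gene Eng one of -0.21 (-0.44 to 0.02). Ehd3, a trafficking protein of glomerular endothelium, had the widest interval of these, with an effect of -0.46 (-0.91 to -0.01, adjusted p = 0.10). Without isoflurane oil rat 1, Ehd3 had an effect of -0.65 (adjusted p = 0.0038). Esam, a junction protein, had an effect of 0.21 (0.01 to 0.41, adjusted p = 0.097), and the transcription factor gene Sox17 one of -0.05 (-0.27 to 0.18).

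The largest change among all 36 genes belonged to a mural gene. Notch3, the Notch receptor of smooth muscle cells and pericytes, stood at 4.73, 4.54 and 4.73 in BDCM rats of the CO2-O2 experiment, against 3.58, 3.69 and 3.60 in oil rats. In the isoflurane experiment it stood at 5.06, 5.26 and 5.01 in BDCM rats, against 4.02, 4.25 and 4.07 in oil rats. The lowest BDCM animal lay well above the highest oil animal in both experiments, and the mean effect was 1.02 (0.87 to 1.17, adjusted p = 2.9e-06), which is 2.03-fold (1.82 to 2.25). Within the slides that held both treatments, Notch3 rose by 0.91 with CO2-O2 and by 1.09 with isoflurane (adjusted p = 0.011 and 0.0059). The rise rests on 1 probe: a second, dimmer probe for the same transcript accession was well above background on all 12 arrays and had an effect of -0.13 (adjusted p = 0.24). Which of the probes follows the Notch3 transcript was not tested.

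**Figure D3:**
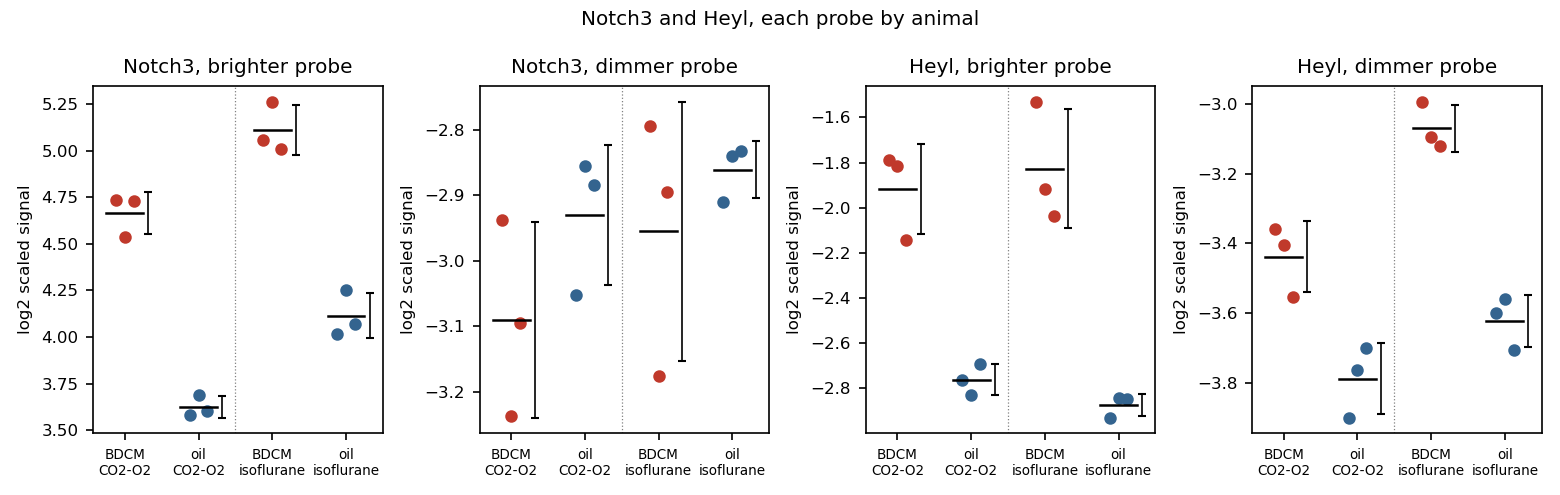
Log2 signal of both probes of Notch3 and both probes of Heyl in each animal (points), with the group mean (horizontal line) and SD (bar), n = 3 per group, each panel on its own axis. The brighter Notch3 probe and both Heyl probes are higher in BDCM than in oil animals in each experiment, and the dimmer Notch3 probe is not.

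Heyl, a repressor gene that Notch receptors switch on in mural cells and a member of the list of further mural genes below, rose on both of its probes. It was at -1.79, -1.82 and -2.14 in BDCM rats with CO2-O2, against -2.76, -2.83 and -2.69 in oil rats. With isoflurane Heyl was at -1.53, -1.92 and -2.03 in BDCM rats, against -2.93, -2.84 and -2.85 in oil rats. The groups did not overlap, and the mean effect was 0.94 (0.73 to 1.16, adjusted p = 4.4e-05), with 0.45 on the second probe. Other Notch pathway genes, given further below, did not rise: Hey1, Hey2 and Hes1 did not pass the test, and the ligand genes Dll1 and Jag1 fell. Whether the Heyl rise had to do with Notch3 was not tested. The promoter of Notch3 is shown because this gene moved most, with the core letters of the Notch effector RBPJ, a motif chosen after the Notch3 and Heyl values were seen. The window (RefSeq, GRCr8) lies at chr7:11834536-11834835 on the minus strand:
Notch3: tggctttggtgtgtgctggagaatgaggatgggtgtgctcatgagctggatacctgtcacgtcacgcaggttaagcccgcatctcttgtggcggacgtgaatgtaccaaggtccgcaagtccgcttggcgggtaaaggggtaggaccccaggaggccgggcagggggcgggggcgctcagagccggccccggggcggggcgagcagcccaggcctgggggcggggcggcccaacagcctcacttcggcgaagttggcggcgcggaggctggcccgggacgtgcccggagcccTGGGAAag
Capitals mark the single match to TGGGAA, searched on both strands, 42 bases after the start; the match also holds the GGAA of the ETS core. Of all windows 25.7% hold TGGGAA, as did 10 of the 30 windows of these genes, and the Heyl window held none. The motif first planned for the mural gene, the CArG box, had 0 matches in the Notch3 window. It was found in 0 of the 30 windows of these genes and in 1.64% of all windows.

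Of the mural genes, Myh11, Acta2 and Rgs5 fell. Myh11, the smooth muscle myosin heavy chain, was at -0.55, -0.67 and -0.71 in BDCM rats with CO2-O2, against -0.52, -0.38 and -0.46 in oil rats. With isoflurane Myh11 was at -0.72, -0.85 and -0.91 in BDCM rats, against -0.24, -0.15 and -0.17 in oil rats. The groups did not overlap in either experiment, with a wider gap in the isoflurane one, and the mean effect was -0.42 (-0.54 to -0.29, adjusted p = 0.00029). Its other probes had effects of -0.34, -0.30 and -0.01, of which the first passed the test, so the probes differed. Acta2, smooth muscle alpha-actin, was at -1.29, -1.38 and -1.35 in BDCM rats and at -1.13, -1.06 and -0.97 in oil rats with CO2-O2. With isoflurane Acta2 was at -1.26, -1.57 and -1.24 in BDCM rats, against -0.97, -0.95 and -0.93 in oil rats. The groups did not overlap, and Acta2 fell by 0.34 (adjusted p = 0.0024). Rgs5, a regulator of G protein signalling that marks pericytes, was at -1.38, -1.85 and -1.52 in BDCM rats and at -1.31, -1.14 and -1.21 in oil rats with CO2-O2. With isoflurane Rgs5 was at -1.92, -2.16 and -1.99 in BDCM rats, against -1.22, -1.52 and -1.59 in oil rats. It fell by 0.47 (adjusted p = 0.0040), again with no overlap.

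The remaining mural genes did not pass the test. The PDGF receptor genes Pdgfrb and Pdgfra, which mark pericytes and fibroblasts, had effects of -0.06 (-0.34 to 0.22) and -0.16 (-0.37 to 0.05). The actin-binding protein gene Tagln and the intermediate filament gene Des had effects of -0.16 (-0.38 to 0.05) and -0.10 (-0.35 to 0.14). Cspg4 (NG2) varied most, from 0.08 to 1.79 in BDCM rats and from 0.34 to 1.29 in oil rats, and its effect of 0.26 had an interval of -0.42 to 0.93. BDCM rat 2 had the highest Cspg4 level of its group in both experiments, and without the isoflurane one the effect was -0.01.

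**Figure D4:**
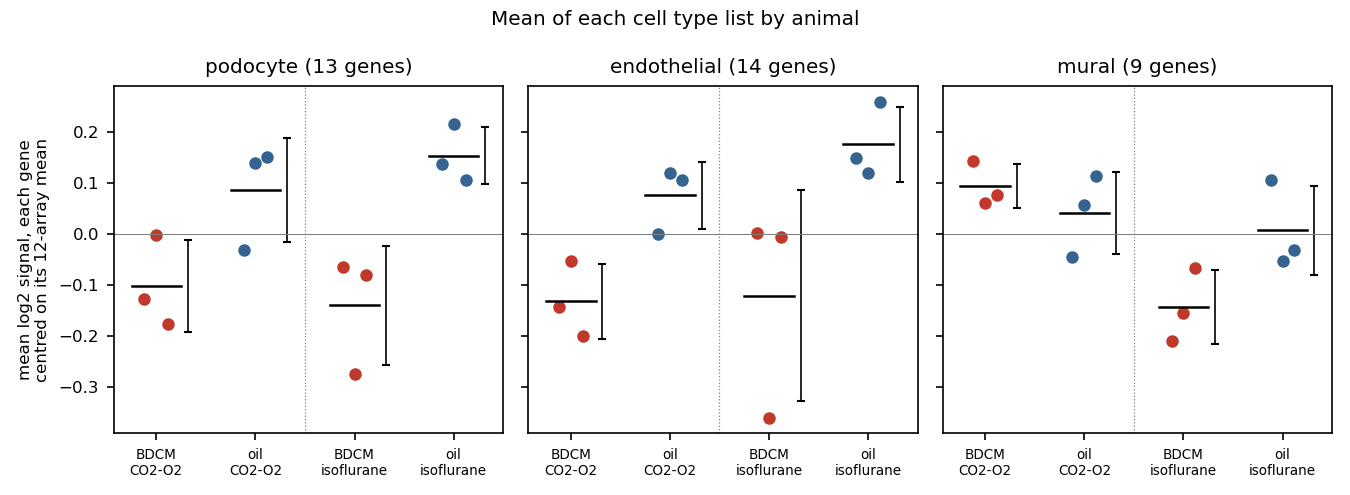
Mean over the genes of each cell type list of the log2 signal centred on each gene's 12-array mean, for each animal (points), with the group mean (line) and SD (bar), n = 3 per group. Podocyte and endothelial means average -0.10 and -0.13 in BDCM rats against 0.09 and 0.08 in oil rats with CO2-O2, while the mural mean averages 0.09 in BDCM rats against 0.04 in oil rats, Notch3 included.

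Averaged over its genes, each list gave 1 value per animal. The podocyte mean was -0.10 ± 0.09 in BDCM rats and 0.09 ± 0.10 in oil rats with CO2-O2, and -0.14 ± 0.12 in BDCM rats and 0.15 ± 0.06 in oil rats with isoflurane (SD, n = 3 each). The endothelial mean was -0.13 ± 0.07 in BDCM rats and 0.08 ± 0.07 in oil rats with CO2-O2, and -0.12 ± 0.21 in BDCM rats and 0.18 ± 0.07 in oil rats with isoflurane. For mural genes it was 0.09 ± 0.04 in BDCM rats and 0.04 ± 0.08 in oil rats with CO2-O2, and -0.14 ± 0.07 in BDCM rats and 0.01 ± 0.09 in oil rats with isoflurane. The mural mean with CO2-O2 and the median of the 9 mural effects there, -0.07, thus differ in sign. The podocyte means of BDCM and oil animals overlapped with CO2-O2 but not with isoflurane, the endothelial means in neither experiment, and the mural means with CO2-O2 only.

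The second question was what each experiment showed alone. With CO2-O2, 5 genes fell (Wt1, Plce1, Ptpro, Tie1 and Plvap) and Cd2ap and Notch3 rose, while over all features 9.89% fell and 19.9% changed in either direction. The 5 decreases, 13.9% of the 36 genes, were thus a share near that of all features. The effects were -0.57 for Wt1, -0.48 for Plce1, -0.36 for Ptpro, -0.66 for Tie1 and -0.34 for Plvap, with adjusted p from 0.0056 to 0.048. The count was 1 without BDCM rat 3 or without oil rat 3, 2 without oil rat 2 and 3 without oil rat 1, and 3 without isoflurane oil rat 2 or 3, which enter through the shared estimate of spread. Over all features, between 4.60 and 8.71% fell in these fits. With scan day as a block 1 gene fell, beside 4.83% of all features, and with slide as a block 0 fell and 1 rose, beside 3.33% and 5.92%.

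With isoflurane, 14 genes fell (Nphs1, Podxl, Wt1, Plce1, Ptpro, Clic5, Robo2, Tie1, Tek, Flt1, Plvap, Acta2, Myh11 and Rgs5) and the same 2 rose, against 12.9% of all features that fell and 13.2% that rose, 26.1% in either direction. The decreases made up 38.9% of the 36 genes. Plce1 had the largest of them, -0.76 (adjusted p = 0.0013), followed by Tek with -0.68 and Myh11 with -0.64. Without BDCM rat 2 the count was 5, and it was 9, 7 and 8 without oil rats 1, 2 and 3. Of all features 6.81% fell without BDCM rat 2 (15.9% changed in either direction, beside 7 of the 36 genes), and 8.79, 8.33 and 8.73% fell without oil rats 1, 2 and 3. With slide as a block 3 genes fell and 1 rose, beside 2.39% and 5.54% of all features. Flt1, the VEGF receptor that also acts as a decoy, was at -2.04, -2.25 and -2.17 in BDCM rats and at -1.89, -1.85 and -1.75 in oil rats here, a fall by 0.32 (adjusted p = 0.027).

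The experiments were then compared. There were 5 genes that fell in both and 2 that rose in both, against 6.92 and 8.58% of all features. In all, 28 genes had negative effects in both experiments, which held for 44.2% of all features. BDCM and oil animals did not overlap for 13 genes with BDCM lower and 2 with BDCM higher in the CO2-O2 experiment, where 39.4% of all features did not overlap in either direction. In the isoflurane experiment these counts were 16 and 3, beside 43.3% of all features. There was no overlap in both experiments, with BDCM lower, for 11 genes (Wt1, Plce1, Ptpro, Clic5, Tie1, Tek, Emcn, Plvap, Acta2, Myh11 and Rgs5), against 13.1% of all features, and with BDCM higher for 2, against 13.5%. The isoflurane effect was the lower one in 29 of 36 genes, against 47.1% of all features. The difference of effects, tested by its own contrast in limma, passed the threshold for 0 of the 36 genes and for 0 of 34218 features, with 1731 features at an unadjusted p below 0.05. Among the 36 genes 2 had such a p. Myh11 had the larger difference, isoflurane minus CO2-O2, of -0.45 (-0.70 to -0.21, unadjusted p = 0.0021, adjusted p = 0.93), and Flt1 one of -0.30 (unadjusted p = 0.043, adjusted p = 0.93). For Notch3 the difference was -0.05 (-0.35 to 0.26) and for Tie1 0.12 (-0.27 to 0.52).

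A further comparison set the isoflurane experiment against the CO2-O2 experiment within each treatment. Anaesthetic, experiment, slide and scan day change together here and cannot be told apart. In BDCM rats 4 genes were higher with isoflurane and 2 were lower, against 11.8 and 5.25% of all features, 17.1% in either direction. These are 11.1 and 5.56% of the 36 genes, shares near those of all features. In oil rats 3 genes were higher and 0 lower, against 7.53 and 3.56%, 11.1% in either direction. The share that was higher, 8.33%, was again near that of all features, so the genes named next are single values. Flt1 averaged -2.16 ± 0.10 with isoflurane and -2.52 ± 0.05 with CO2-O2 in BDCM rats, and -1.83 ± 0.07 and -2.50 ± 0.15 in oil rats (SD, n = 3 each), with differences of 0.37 and 0.67 (adjusted p = 0.025 and 0.0028). Synpo was higher by 0.48 in BDCM rats and 0.52 in oil rats, and the brighter Notch3 probe by 0.44 and 0.49. Cdh5 was higher by 0.54 in BDCM rats (adjusted p = 0.032), where Wt1 and Tagln were lower by 0.45 each (adjusted p = 0.049 and 0.048). Over all alternatives the Cdh5 difference ranged from 0.13 to 0.68 (adjusted p = 0.0085 to 0.52). The Flt1 difference in oil rats ranged from 0.34 to 0.73 (adjusted p = 0.00091 to 0.096). The calls changed with the animals left out. Of the genes lower with isoflurane in BDCM rats, 0 passed without CO2-O2 BDCM rat 1 or 3, isoflurane BDCM rat 1 or 2, CO2-O2 oil rat 2 or 3, or isoflurane oil rat 2 or 3, 1 passed without CO2-O2 or isoflurane oil rat 1, and 4 without isoflurane BDCM rat 3. Of those higher in BDCM rats, 2 passed without CO2-O2 BDCM rat 3 and 1 without isoflurane BDCM rat 1 or 3. Of those higher in oil rats, 1 passed without CO2-O2 oil rat 1 or isoflurane oil rat 2. The share of all features moved as well. Without CO2-O2 oil rat 1, 3.47% were higher in oil rats, against 7.53%, and 4.49% were lower in BDCM rats, against 5.25%. For the other left-out animals these shares are not given here.

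Further genes of the same cells and their signals were read from 4 longer lists, none of whose members belongs to the 38. Of 22 other podocyte genes tested, 12 fell and 0 rose with BDCM in the mean effect, with a median of -0.24, where 20.4% of all features fell. Blocking by slide gave 6 that fell, beside 12.4% of all features, and blocking by scan day gave 7, beside 17.7%. Col4a4, which encodes a type IV collagen chain of the mature glomerular basement membrane, was at 1.08, 0.98 and 0.67 in BDCM rats with CO2-O2, against 2.08, 2.61 and 2.65 in oil rats. With isoflurane Col4a4 was at 1.17, -0.01 and 0.60 in BDCM rats, against 2.39, 2.32 and 2.30 in oil rats. The groups lay far apart in both experiments, and the mean effect was -1.64 (-2.06 to -1.23, adjusted p = 9.7e-05), or 0.32-fold. The receptor tyrosine kinase gene Mertk and the semaphorin gene Sema3g fell by 0.56 and 0.55 (adjusted p = 0.0014 each). Some genes of this list, such as Dpp4 and Enpep, are also made by proximal tubule cells.

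Of 31 other endothelial genes tested, 5 fell and 1 rose, with a median of -0.14. Mmrn1, an endothelial matrix protein gene, the tight junction gene Cldn5 and the arterial connexin gene Gja5 fell by 0.63, 0.57 and 0.40 (adjusted p = 0.0039, 0.011 and 0.0084). With slide as a block these 3 calls were lost (adjusted p = 0.15, 0.088 and 0.25). In that fit 1 gene of the list fell, beside 12.4% of all features. With scan day as a block 3 fell, beside 17.7%, and Gja5 did not pass (adjusted p = 0.082). With either block 3 genes of the list rose, beside 11.9% of all features with slide and 15.8% with scan day blocked. The flow-responsive factor gene Klf4 rose by 0.50 (adjusted p = 0.030). The share that fell was 16.1%, beside 20.4% of all features. Prox1, the defining factor of lymphatic endothelium, was well above background on 0 of the 12 arrays.

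Of 22 other mural genes tested, 7 fell and 3 rose, with a median of -0.22, beside 20.4% of all features that fell and 17.7% that rose. These are 31.8% and 13.6% of the list. Itga8, an integrin of mesangial cells, the growth factor gene Ptn and the angiotensin receptor gene Agtr1a fell by 0.64, 0.63 and 0.61 (adjusted p = 0.0027, 0.0030 and 0.0056), and the Agtr1a call was lost with slide as a block (adjusted p = 0.099). Besides Heyl, the actin-binding protein gene Cald1 rose 2.52-fold (adjusted p = 0.0010, with effects of 1.34, 1.19 and 0.97 on its probes) and the tropomyosin gene Tpm1 rose 1.34-fold (adjusted p = 0.00030, with 4 of its 5 probes past the threshold and the fifth at -0.06). Both are also expressed outside muscle. Tbx18, a factor gene of pericytes, was well above background on 0 of the 12 arrays.

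Genes of the signals between these cells were mixed. Of 43 ligand, receptor and mediator genes tested, 14 fell and 3 rose, with a median of -0.20. These are 32.6% and 6.98% of the list, beside 20.4% and 17.7% of all features. Angiopoietin-1 (Angpt1), the activating ligand of Tek that podocytes and mural cells secrete, had the largest decrease. It was at -1.33, -1.52 and -1.37 in BDCM rats with CO2-O2, against -0.30, -0.70 and -0.48 in oil rats. With isoflurane Angpt1 was at -1.42, -2.32 and -1.35 in BDCM rats, against -0.09, 0.12 and -0.29 in oil rats. No BDCM animal reached its oil group, and the mean effect was -1.26 (-1.63 to -0.89, adjusted p = 0.00026), or 0.42-fold. Thus Angpt1 and both Tie receptor genes fell. Angpt2, the context-dependent antagonist, named here after its value was seen, had an effect of -0.20 (-0.41 to 0.01, adjusted p = 0.12).

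**Figure D5:**
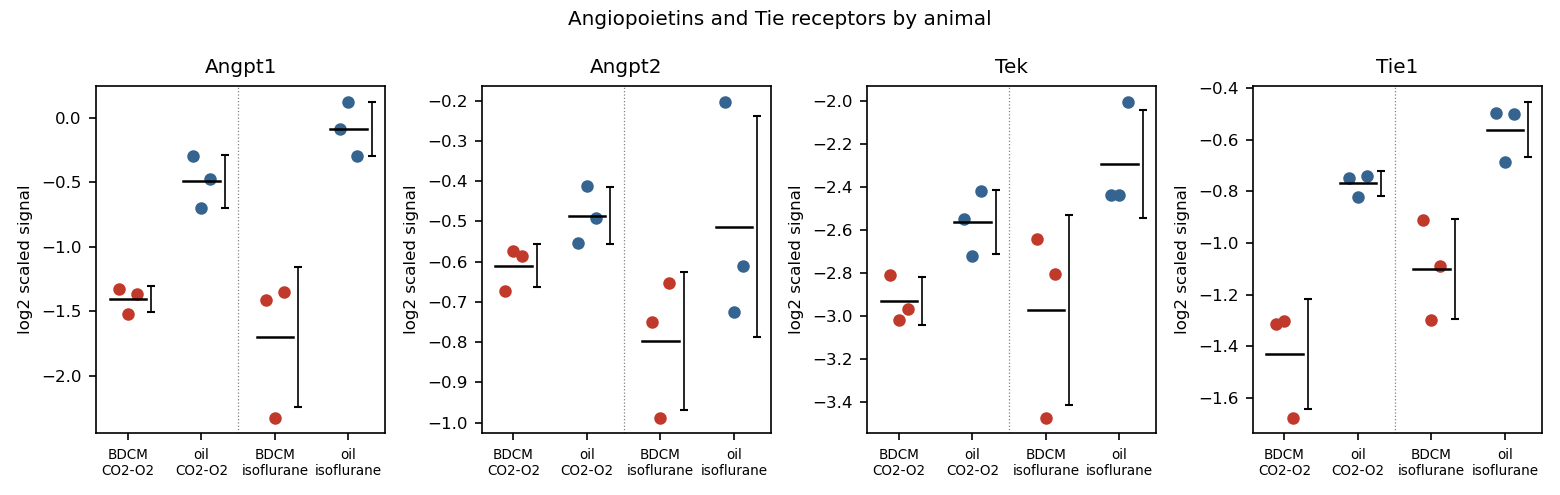
Log2 signal of Angpt1, Angpt2, Tek and Tie1 in each animal (points), with the group mean (line) and SD (bar), n = 3 per group, each panel on its own axis. Angpt1, Tek and Tie1 are lower in each BDCM animal than in any oil animal of the same experiment, and Angpt2 overlaps in the isoflurane experiment.

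Slit3, a ligand of the Robo guidance receptors, fell to 0.46-fold (effect -1.12, adjusted p = 5.1e-05), and the Robo2 probe used fell as given above. The matrix protein gene Thbs1 fell by 0.74 (adjusted p = 0.039), a call that was lost without CO2-O2 oil rat 1 or 3, any 1 of the CO2-O2 BDCM rats, isoflurane oil rat 1 or isoflurane BDCM rat 2, and with slide or scan day blocked (adjusted p = 0.18 and 0.062). The 3 genes of this list that rose were growth factor genes. The VEGF family gene Vegfb rose 1.39-fold (adjusted p = 0.00099), and the platelet-derived growth factor genes Pdgfa and Pdgfb rose 1.27-fold and 1.28-fold (adjusted p = 0.0043 and 0.024), while their receptor genes Pdgfra and Pdgfrb did not pass the test. The Pdgfb call was lost without CO2-O2 oil rat 1 or 2, CO2-O2 BDCM rat 3, isoflurane oil rat 3 or isoflurane BDCM rat 3, with slide as a block (0.28 on the log2 scale, adjusted p = 0.094) and with scan day as a block (0.18, adjusted p = 0.25), and the Klf4 call above without 8 of the 12 animals taken singly. Of the other Notch pathway genes on the list, named after their values were seen, Dll1 and Jag1 fell by 0.67 and 0.31, and Dll4, Notch1, Notch2, Notch4, Hey1, Hey2 and Hes1 did not pass the test, with effects between -0.34 and 0.10.

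Some markers of other cortical cells moved in the same samples, and their part in these results was not tested. All 10 proximal tubule genes tested fell, with a median of -0.70. Their summed level (in units of the 75th percentile) was 1162 to 1445 in BDCM rats and 1543 to 2018 in oil rats with CO2-O2, and 1044 to 1532 in BDCM rats and 2172 to 2301 in oil rats with isoflurane. Such sums, here and below, are set mostly by the brightest probes of a list. BDCM rat 2 was the lowest animal for this list too. Of 8 genes of tubular injury 4 rose and 1 fell, with osteopontin (Spp1) 9.73-fold higher. Of 8 loop and distal tubule genes 1 fell and 1 rose, of 8 leukocyte genes 1 fell, and of 7 fibroblast and fat cell genes 2 fell. Of all features 20.4% fell and 17.7% rose. The shares were 12.5% each way for loop and distal tubule genes and 12.5% lower for leukocyte genes, both below those of all features. For fibroblast and fat cell genes 28.6% fell. The summed level of the fibroblast and fat cell genes was 18.3 to 22.5 in BDCM rats and 22.2 to 25.5 in oil rats with CO2-O2, and 13.6 to 19.6 in BDCM rats and 20.1 to 26.8 in oil rats with isoflurane. Their centred list mean was 0.20 in BDCM rats and 0.21 in oil rats with CO2-O2, and -0.55 and 0.14 with isoflurane. The fat cell hormone gene Lep was well above background on 0 arrays.

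Of 10 liver genes 1 fell and 1 rose, 10% each way, beside 20.4% and 17.7% of all features. Albumin (Alb), named here after its values were seen, ranged from -1.44 to 1.66 over the CO2-O2 animals and from -8.07 to -0.69 over the isoflurane animals, where BDCM rat 1 (-0.69) and oil rat 3 (-2.97) were the only ones well above background. The summed level of the liver genes was 20.4 to 26.6 in BDCM rats and 9.84 to 29.1 in oil rats with CO2-O2, and 11.8 to 14.1 in BDCM rats and 5.38 to 13.8 in oil rats with isoflurane. Without these 2 animals, 16 of the 36 genes fell and 2 rose in the mean effect.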

How the data were processed

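Gene expression was measured in 12 renal cortex RNA samples, 1 array each. The authors' scanner files hold intensity values. Feature Extraction made them, as version 10.7 per the submitters' processing notes and 10.7.1.1 per the file headers. The headers list background-subtracted signals and a detrending fit for each array. The values deposited beside them are a linear ratio: the processed signal over its array's 75th percentile. Their 6 isoflurane columns equal their own scanner files, and each CO2-O2 column equals another animal of the same group, so animals are numbered by their scanner files.

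The processed signals of an array, as deposited, were scaled to its 75th percentile and then turned into log2 values. Control spots and spots marked as outliers were left out, which gave 54 missing values among the features tested. Of the 61657 non-control probes, which the submitters' notes place on build rn4, a total of 27460 had 1 gene symbol through their RefSeq accession (genes of GRCr8), 0 had several, and the others stayed unnamed. Where a gene had several probes, the brightest on average was used. A feature was kept if some group had it well above background on each of its 3 arrays. The 34218 features kept were fitted with limma 3.58.1 (R 4.3.3, with version 1.17.8 of data.table) with 1 mean per group, and p-values were adjusted by Benjamini and Hochberg over all of them, with a threshold of 0.05. Intervals are 95% intervals. Figures used matplotlib 3.10.9 and pandas 2.3.3 in Python 3.11.15. The steps were tested on simulated data.

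The 38 genes, the further lists and the tests were chosen with earlier results of these data known. The naming rule takes all 38 genes, up to 3 genes per direction with the largest mean effect past the threshold from each of 4 further lists, at most 2 bright genes of each list of other cells, and the promoter of the most changed gene of each cell type. Labels give 3 separate animals per group. Alternatives changed the scaling, background correction (normexp with an offset of 50 on median spot signals), filter, probe choice, weights, block, the groups fitted and the animals included.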

Additional observations from a re-analysis of the deposited data

How the results depend on the processing

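Over the alternatives, Notch3, Cd2ap, Wt1, Plce1, Tie1, Acta2, Myh11 and Rgs5 passed the threshold in the mean effect under each setting run, and the count of genes that fell stayed within 1.5 times of 16 except with slide as a block (8). All settings but the mean of probes read the same probe of a gene, so they cannot test where its probes differ. With the mean of probes the effect was 0.45 for Notch3, beside 1.02, and -0.27 for Myh11, beside -0.42. Leaving out each animal in turn gave 14 to 17 genes that fell and 2 to 3 that rose. In the CO2-O2 comparison the share of all features that fell also moved with the setting. It was 4.48% with no filter, 12.1% with array weights and 7.71% with only the groups compared, beside 9.89% as reported. For CO2-O2 the 5 genes that fell became 3 with no filter, 9 with array weights, 0 with slide as a block, 1 with scan day as a block and 3 with only the groups compared (1 to 7 leaving out single animals), and the 2 that rose became 1 with either slide or scan day blocked (2 to 2 leaving out single animals). For isoflurane the 14 that fell became 9 with no filter, 3 with slide as a block and 8 with only the groups compared (5 to 15), and the 2 that rose became 1 with slide as a block or with only the groups compared. Here 6.32, 2.39 and 8.18% of all features fell, in that order, beside 12.9% as reported. Those that rose made up 5.54% with slide blocked and 9.62% with only the groups compared, beside 13.2%. The difference of effects kept 0 calls among the 36 genes (0 to 0), and over all features it had 11 calls with slide as a block, 20 with scan day as a block and at most 1 leaving out single animals. For isoflurane minus CO2-O2 in oil rats, lower genes numbered 2 with median scaling and 1 with normexp or array weights against 0, and higher genes 1 with the mean of probes, 5 with array weights and 1 without both isoflurane animals with albumin signal against 3 (1 to 3). Of all features 7.56, 3.61 and 6.82% were lower with median scaling, normexp and array weights, beside 3.56% as reported. Those higher made up 7.19% with the mean of probes and 12.5% with array weights, beside 7.53%. Median scaling put the median of all features for this comparison at -0.06, against 0.05 as reported. In BDCM rats, the 2 lower genes became 6 with median scaling, 1 with the mean of probes or with every probe as its own feature, and 0 with no filter, array weights, slide as a random block, the replicate block, only the groups compared or without both isoflurane animals with albumin signal (0 to 4). With median scaling, the mean of probes and every probe as its own feature, 8.72, 4.69 and 5.18% of all features were lower, beside 5.25%. For the fits with 0, in that order, the shares were 2.09, 3.79, 4.44, 4.71 and 0.701%, with none given for the last. The 4 higher genes became 1 with median scaling or no filter, 2 with normexp or the mean of probes, 0 with only the groups compared and 1 without both isoflurane animals with albumin signal (1 to 4). The alternative without both isoflurane animals with albumin signal was chosen after seeing the data, and the cause of these shifts was not tested. The labels do not say whether the replicate numbers shared by the groups pair the samples, and whether they do was not settled. Deviations of same-numbered arrays correlated from -0.06 to 0.23, above 0.1 in 2 of 18 pairs, and 8 of 12 animals were closest to their own number. With the replicate block, 16 genes fell and 2 rose in the mean effect, 4 and 2 with CO2-O2, and 12 and 2 with isoflurane. Of all features 19.9, 9.13 and 12.2% fell in these comparisons and 17.2, 9.64 and 12.7% rose, in that order. For the further lists in the mean effect, the count that fell ranged over all alternatives from 6 to 13 (other podocyte), 1 to 7 (other endothelial), 6 to 10 (other mural) and 10 to 17 (signalling), and the count that rose from 0 to 1, 0 to 3, 3 to 3 and 2 to 4.

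Signs turned for 6 genes. The mean effect of Kirrel1 was 0.097 and 0.010 with slide and scan day as a block, and that of Pecam1 was 0.0018 with the mean of probes. The mean effect of Sox17 was 0.010 with array weights. Leaving out single animals gave mean effects from -0.11 to 0.019 for Sox17, from -0.15 to 0.019 for Pdgfrb and from -0.0065 to 0.42 for Cspg4. The CO2-O2 effect of Robo2 was 0.050 with slide blocked and 0.050 with scan day blocked. The arrays limit these results in 3 ways: groups hold 3 animals, slides hold treatments unevenly, and whole cortex RNA does not say which cells changed.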
